A study of Mus musculus with 30 samples.

Results

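The 38 genes described here are a set of Wnt pathway genes chosen by name: 7 Wnt ligands, 11 receptors and co-receptors, 4 R-spondins, 6 secreted inhibitors, and 10 TCF/LEF factors or genes known as targets and feedback regulators of the pathway. All 38 were present among the 26005 genes of the sphere table, and 33 were among the 14997 genes of the captured-cell table. The other 5 (Wnt3a, Fzd10, Rspo4, Notum and Rnf43) were listed at no age in captured cells.

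RNA was sequenced from midbrain floor plate cells of Lmx1aCreERT2; R26TRAPC mice, cut from sections by laser capture at embryonic days 11, 13 and 18 (E11, n = 4; E13, n = 5; E18, n = 5) and in adults at postnatal day 70 (P70, n = 6). Every captured group carried both alleles, and the labelled lineage depends on tamoxifen-inducible Cre expressed from Lmx1a, a transcription factor gene of the floor plate. Spheres grown in culture from adult brain form the second set, with the labels MB (n = 5) and FB (n = 5). The labels do not spell these letters out, and give the spheres no genotype; the series' design names ependymal spheres from the midbrain aqueduct and neurospheres from the lateral ventricle. No label ties a library to an animal or a culture, so the p-values measure only the spread between libraries, which may be technical.

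Wnt ligands are secreted lipid-modified proteins that bind Frizzled receptors. With an Lrp5 or Lrp6 co-receptor, a canonical ligand stops the destruction of beta-catenin, which then enters the nucleus and activates genes with TCF/LEF factors; other ligands, Wnt5a among them, act mainly without beta-catenin. R-spondins bind Lgr receptors and strengthen the signal, while Sfrp, Dkk and Notum proteins weaken it outside the cell. In the midbrain the pathway is known for patterning the ventral midline and for the birth and differentiation of dopamine neurons.

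Values of captured cells are in the units of the deposited table, which behave as reads per kilobase of gene and per depth of library (RPKM), so levels can be set beside each other between genes. A gene has values only at ages where its mean was at least 1 unit, and is called not listed at the others. Sphere values are counts scaled to the library total (CPM), not corrected for length, and are compared only within a gene. The whole reads recovered for captured libraries came to 1559038 to 4161257 per library, a lower bound on depth, and sphere libraries held 6327198 to 9291311 counts. Floor plate markers were present at the embryonic ages: the mean of Foxa2 was 96.8 ± 15.5 units in E11 libraries (SD, n = 4), 111 ± 12.7 in E13 libraries (n = 5), 33.2 ± 5.45 in E18 libraries (n = 5) and 14.9 ± 5.24 in P70 libraries (n = 6). Shh and Corin were not listed at P70, and Tmem212, a gene of ciliated ependymal cells, averaged 2150 ± 533 units at E18 and 5428 ± 1356 at P70 while not listed at E11 or E13. Libraries of a group correlated at 0.849 to 0.969 in captured cells and at 0.983 to 0.986 in spheres. E18 replicate 1 stood apart from the other E18 libraries for Rspo3, Dkk3 and Axin2, and values without it are given beside those results. In these bulk samples, fewer cells of a type and less RNA per cell cannot be told apart.

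Fewer members were listed at later ages: E11 libraries listed 30 of them and E13 libraries 28, while E18 had 23 and P70 had 19. Over all genes the table lists 12221 for E11, 12381 for E13, 13340 for E18 and 13291 for P70. Wnt5a had the highest mean of the set at E11 (55.4 ± 17.7 units, n = 4), E13 (64.4 ± 25.9, n = 5) and E18 (48.2 ± 16.5, n = 5). At E11 the next means, 36.4 ± 8.91 for Sfrp2, 34.2 ± 2.49 for Tcf7l2, 33.8 ± 11.8 for Dkk2 and 31.4 ± 16.3 for Wnt1, did not differ from each other beyond their spread. At P70 the transcription factor gene Tcf7l2 stood first with 55.3 ± 8.74 units (n = 6), and its libraries (39.5 to 64.8) lay above all those of Fzd3 (22.9 to 32.6), the next in order. Fzd3 (26.5 ± 3.69) and Lgr4 (24.3 ± 11.1) overlapped at P70.

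**Figure D1:**
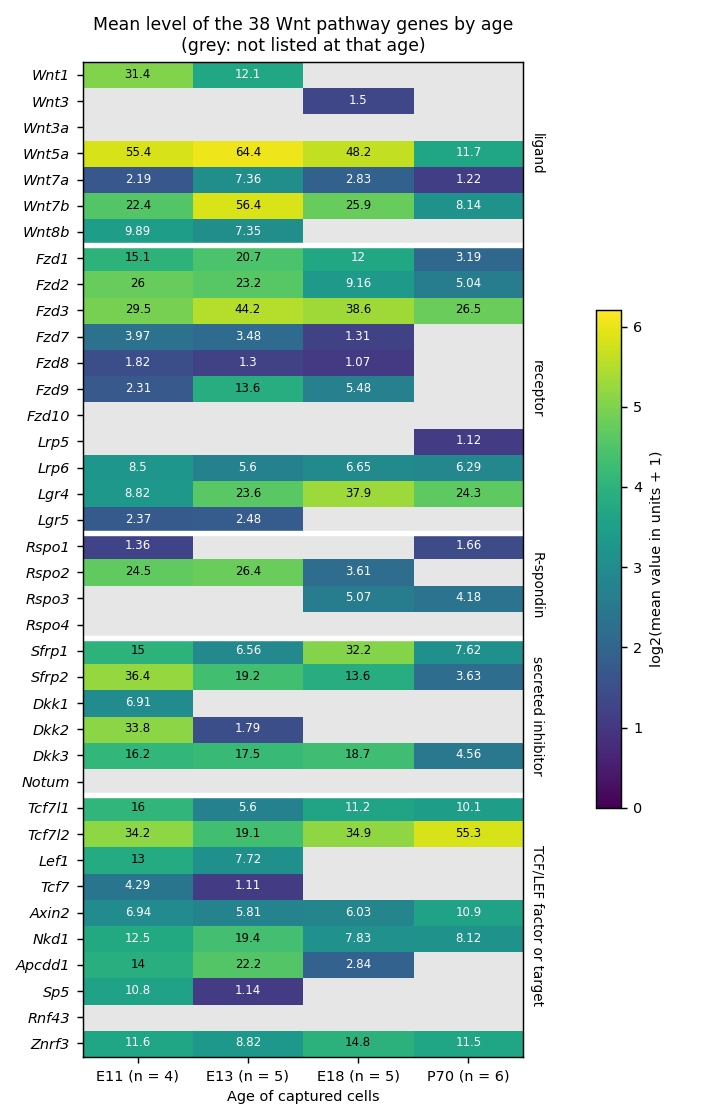
Mean level of each of the 38 Wnt pathway genes in captured cells, by age (columns) and role (blocks of rows), in units that behave as RPKM; colour gives log2(mean + 1) and grey marks ages at which a gene was not listed. Listed members number 30 at E11 and 19 at P70, and Tcf7l2 has the highest mean at P70 (55.3 units).

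Neighbouring ages were compared with limma on log2(units + 1), with p-values adjusted by the Benjamini-Hochberg method over all genes listed at both ages and a threshold of 0.05. At E13 against E11 (E13/E11 for short, and likewise for the other steps), 28 members were tested, of which 3 were higher and 6 lower; of all 11567 genes tested 20.4% were called, 9.26% higher and 11.2% lower. At E18 against E13, 4 of 21 were higher and 9 lower, beside 47.0% of 11797 genes called (22.2% higher and 24.8% lower). At P70 against E18, 2 of 17 were higher and 7 lower, beside 40.7% of 12353 genes called (16.8% higher and 23.9% lower). The median log2 change of the tested members was -0.21 against -0.04 over all genes at E13/E11, -0.41 against -0.04 at E18/E13, and -0.73 against -0.14 at P70/E18. The comparisons share libraries (E13 enters E13/E11 and E18/E13, E18 enters E18/E13 and P70/E18), so a high or low value at a shared age enters both of its comparisons with opposite sign. TMM rescaling of the libraries, which matches the bulk of their genes, moved the median of all genes at P70/E18 to -0.01, and changed the split of called genes at that step to 2542 higher and 2255 lower, against 2075 and 2949.

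**Figure D2:**
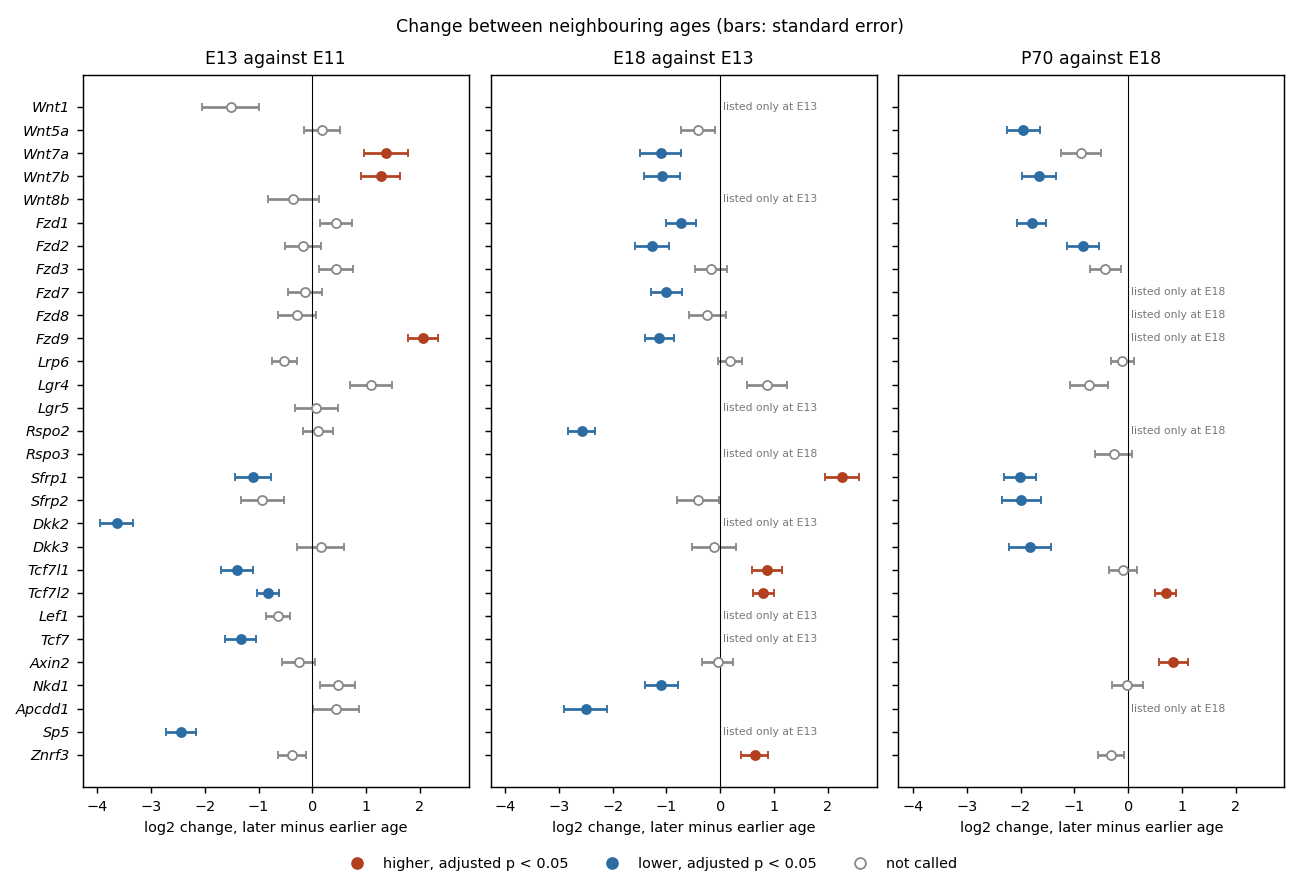
Log2 change (later minus earlier age, on log2(units + 1)) of each tested member at E13/E11, E18/E13 and P70/E18, with standard error bars; filled red points are higher and filled blue points lower at an adjusted p under 0.05, open points are not called, and grey text marks members listed at only 1 age of the pair. The steps show 3 higher and 6 lower, 4 higher and 9 lower, and 2 higher and 7 lower members.

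Among the ligands, Wnt7a and Wnt7b were higher at E13 than at E11 and lower again at E18, while Wnt5a stayed high through E18 and was lower at P70. Wnt7b, a canonical ligand known for guiding brain blood vessel growth, had 14.9, 21.4, 22.4 and 30.8 units at E11, 63.7, 31.4, 65.8, 44.7 and 76.2 at E13, and 38.8, 27.4, 16.4, 19.7 and 27.3 at E18, then a lowest of 3.02, a median of 8.71 and a highest of 13 at P70. All E13 libraries exceeded all E11 libraries, E18 and E13 overlapped only through E13 replicate 2 and E18 replicate 1, and all P70 libraries lay below all E18 libraries. The log2 changes were 1.27 ± 0.36 (SE, adjusted p = 0.0149) at E13/E11, -1.09 ± 0.34 (0.0118) at E18/E13 and -1.66 ± 0.32 (0.000374) at P70/E18. The first call was lost without E11 replicate 1 (adjusted p = 0.0648; 0.000204 to 0.0648 over all alternatives).

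Wnt7a, its close relative, was much lower: 1.35, 1.23, 4.07 and 2.12 units at E11, 11.0, 4.81, 10.3, 3.55 and 7.18 at E13, 5.38, 1.47, 2.65, 2.38 and 2.24 at E18, and 0 to 3.40 with a median of 1.04 at P70. E13 overlapped E11 through 1 library on each side, E13 replicate 4 and E11 replicate 3, and overlapped E18 through E18 replicate 1. Its log2 changes were 1.37 ± 0.41 at E13/E11 (limma adjusted p = 0.0194), -1.11 ± 0.38 at E18/E13 (0.0219) and -0.88 ± 0.37 at P70/E18, which was not called (0.0612). The first call was lost without E11 replicate 1 or 2 or E13 replicate 1 or 3 (0.0547 to 0.0673) and at a pseudocount of 0.1 (0.114), with 0.00012 to 0.114 over all alternatives. The second was lost without E13 replicate 1 or 3 or E18 replicate 2 (0.0616 to 0.0623) and at that pseudocount (0.125, over a range of 0.000711 to 0.125), and the last was gained without E18 replicate 2 (0.0479) or P70 replicate 6 (0.014), at that pseudocount (0.0457), with a weight per library (0.0319) and under the replicate block (0.00572), over a range of 0.00572 to 0.306.

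Wnt5a, the main ligand of beta-catenin-independent signalling, had 40.4 to 80.5 units at E11, 41.8 to 104 at E13, 61.3, 44.5, 21.0, 56.7 and 57.8 at E18, and 5.34 to 19.2 with a median of 11.8 at P70. The embryonic ages overlapped, and every P70 library lay below every E18 library. The log2 change at P70/E18 was -1.95 ± 0.31 (limma adjusted p = 3.72e-05), against 0.18 ± 0.34 (0.775) at E13/E11 and -0.42 ± 0.32 (0.304) at E18/E13.

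Wnt1, the canonical ligand of the midbrain-hindbrain organizer and ventral midline, had 3.35, 5.01, 7.11, 20.7 and 24.2 units at E13, against 53.4, 33.9, 20.3 and 17.9 at E11, and was not listed later. The ages overlapped through E13 replicates 4 and 5, and the log2 change of -1.52 ± 0.52 was not called (limma adjusted p = 0.0592). It was called lower without E13 replicate 4 (0.0346) or 5 (0.0246), with only both ages in the fit (0.0383), with a weight per library (0.00681) and under the replicate block (0.0358), over a range of 0.00681 to 0.184. Wnt8b had 3.37 to 14.6 units at E13 and 3.06 to 16.8 at E11, overlapping throughout, and was not listed later either. Wnt3 was listed only at E18, at 0.913 to 1.91 units.

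**Figure D3:**
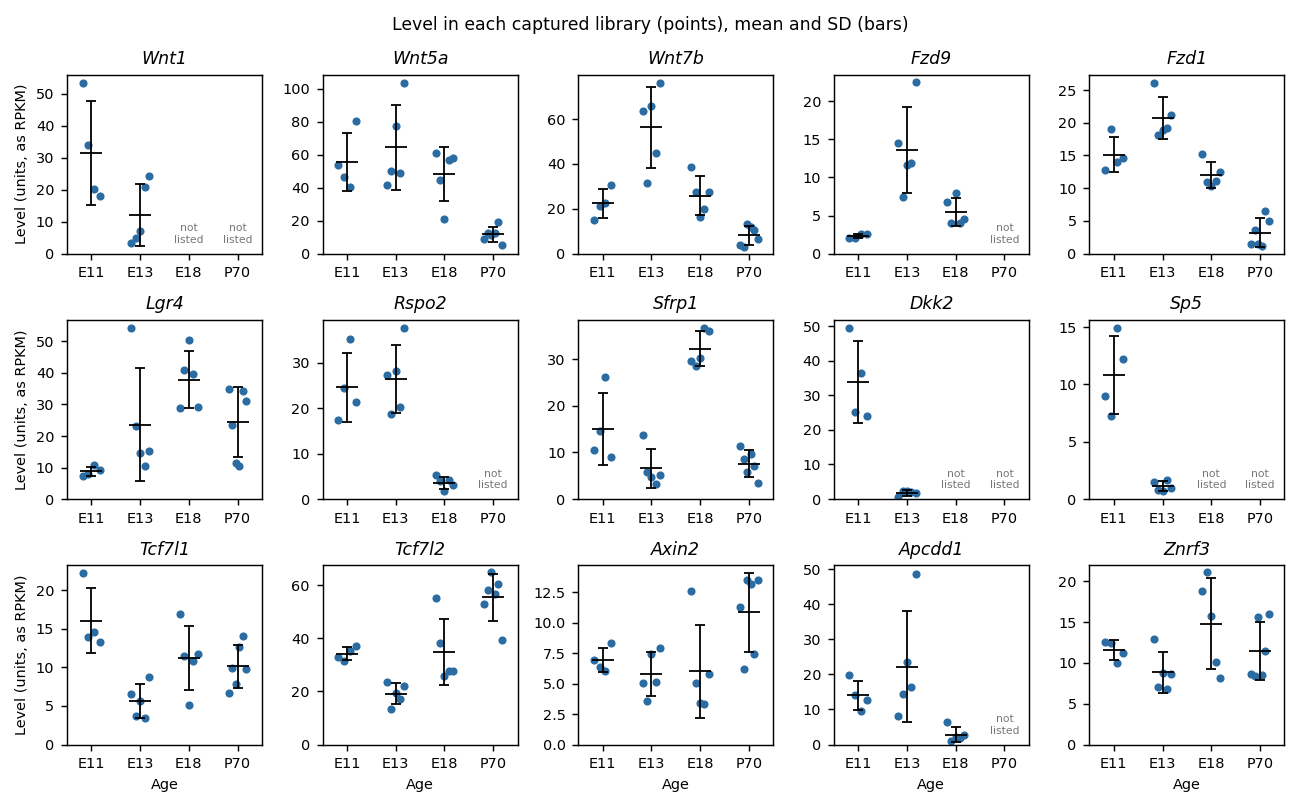
Level of 15 Wnt pathway genes in each captured library (points), with mean and SD (bars), at E11 (n = 4), E13 (n = 5), E18 (n = 5) and P70 (n = 6); each vertical axis starts at 0 and is in units that behave as RPKM. Dkk2 and Sp5 sit low in every E13 library, Sfrp1 is highest at E18, and Tcf7l2 is highest at P70.

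Of the Frizzled receptors, only Fzd9 was called at E13/E11, and Fzd1, Fzd2, Fzd7 and Fzd9 were lower at E18 than at E13. Fzd9 had 2.04, 2.03, 2.61 and 2.55 units at E11, 14.6, 7.40, 11.6, 11.9 and 22.5 at E13, and 6.83, 4.03, 7.99, 4.03 and 4.49 at E18, and was not listed at P70. Every E13 library exceeded every E11 library, while E18 replicate 3 (7.99) overlapped E13 replicate 2 (7.40). The log2 change was 2.06 ± 0.28 at E13/E11 (limma adjusted p = 8.2e-05) and -1.13 ± 0.26 at E18/E13 (0.00209), and no alternative changed either call.

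Fzd1 had 12.8 to 19.0 units at E11, 26.1, 18.1, 18.9, 19.2 and 21.2 at E13, 15.2, 11.0, 10.4, 11.1 and 12.5 at E18, and 1.14 to 6.47 with a median of 2.54 at P70. E18 lay wholly below E13, and P70 wholly below E18. The log2 change was -0.74 ± 0.28 at E18/E13 (limma adjusted p = 0.0366) and -1.79 ± 0.27 at P70/E18 (2.43e-05). The E18/E13 call was lost without E13 replicate 1, 3, 4 or 5 or E18 replicate 2, 3, 4 or 5 (0.0506 to 0.0863), after TMM rescaling (0.0736) and at a pseudocount of 0.1 (0.0854), within 0.00172 to 0.0863 over all alternatives.

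Fzd2 had 19.3 to 30.6 units at E11, 31.1, 19.4, 19.5, 18.9 and 27.1 at E13, 13.3, 10.1, 5.97, 9.02 and 7.32 at E18, and 0.842 to 6.61 with a median of 5.69 at P70. E18 lay below E13 in every library (log2 change -1.27 ± 0.31, limma adjusted p = 0.00214), and P70 overlapped E18 through E18 replicate 3 (-0.84 ± 0.30, 0.0293). The P70/E18 call was lost without E18 replicate 1, 2 or 4 (0.0519 to 0.0856), after TMM rescaling (0.0616), with only both ages in the fit (0.0873) and on recovered reads with edgeR (0.137), over a range of 0.0219 to 0.137. Fzd7 had 1.33, 1.86, 0.334, 0.787 and 2.22 units at E18, all below its 4.09, 2.89, 3.43, 2.35 and 4.64 units at E13, with a log2 change of -1.0 ± 0.29 (limma adjusted p = 0.00955), and was not listed at P70.

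Fzd3, a receptor known for axon guidance and planar polarity, was called at no step, with group means between 26.5 and 44.2 units at the 4 ages; at P70/E18 its log2 change of -0.42 ± 0.29 (limma adjusted p = 0.25) passed only without E18 replicate 3 (0.0217; 0.0217 to 0.505 over all alternatives), and at E13/E11 its change of 0.44 ± 0.32 (0.363) only with a weight per library (0.024; 0.024 to 0.699). The co-receptor gene Lrp6 was called at no step either, with means of 8.50 ± 1.15 (n = 4), 5.60 ± 0.484 (n = 5), 6.65 ± 1.58 (n = 5) and 6.29 ± 2.34 units (n = 6) at E11, E13, E18 and P70. Its E13 libraries (4.90 to 6.23 units) all lay below its E11 libraries (6.94 to 9.69), with a log2 change of -0.52 ± 0.24 (limma adjusted p = 0.135). That change was called with only both ages in the fit (0.0209), with a weight per library (0.00481) and on recovered reads with edgeR (0.0116), over a range of 0.00481 to 0.282. Lrp5 was listed only at P70 (0 to 2.05 units), Lgr5 only at E11 and E13 (0.877 to 4.68), and Fzd8 only in embryos (group means of 1.07 to 1.82).

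Lgr4, a receptor for R-spondins, had 7.31 to 10.7 units at E11, 54.4, 23.3, 14.6, 10.6 and 15.3 at E13, 28.9 to 50.5 at E18, and 10.5 to 34.9 with a median of 27.4 at P70. E13 replicate 1 stood far above the other E13 libraries, and E13 replicate 4 (10.6) fell inside the E11 range. The log2 changes of 1.10 ± 0.39 at E13/E11 (limma adjusted p = 0.0505), 0.87 ± 0.37 at E18/E13 (0.0584) and -0.73 ± 0.35 at P70/E18 (0.103) were not called. The first passed without E13 replicate 4 (0.0245), among genes with a mean of at least 5 units (0.044), with only both ages in the fit (0.0376), with a weight per library (0.00255) and on recovered reads with edgeR (0.0118), over a range of 0.00255 to 0.146. The second passed without E13 replicate 1 (0.0046), with a weight per library (0.0125) and after TMM rescaling (0.0401), over a range of 0.0046 to 0.172.

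The R-spondins, secreted proteins that strengthen Wnt signals, were each listed at some ages only, and Rspo4 at none. Rspo2 had 17.4, 24.4, 35.1 and 21.3 units at E11, 27.3, 18.6, 28.1, 20.2 and 37.6 at E13, and 5.28, 3.89, 1.68, 4.11 and 3.12 at E18, and was not listed at P70. All E18 libraries lay below all E13 libraries, with a log2 change of -2.58 ± 0.26 (limma adjusted p = 6.15e-07) that no alternative removed. Rspo3 was listed only from E18, with 1.6 to 8.31 units and a median of 3.60 at P70, overlapping the 9.92, 3.46, 3.85, 3.35 and 4.75 units at E18 (-0.27 ± 0.35, limma adjusted p = 0.575, and -0.03 without E18 replicate 1). Rspo1 was near the limit of the table, listed at E11 (0 to 4.22 units) and P70 (0 to 3.14).

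Of the secreted inhibitors, 2 of 4 tested were lower at E13/E11, 1 of 3 was higher at E18/E13 and 3 of 3 were lower at P70/E18. Over all genes tested, 11.2% were lower at E13/E11, 22.2% higher at E18/E13 and 23.9% lower at P70/E18. Dkk2, an inhibitor that binds Lrp co-receptors, had 0.487, 2.36, 2.32, 2.07 and 1.70 units at E13, against 49.3, 25.2, 36.6 and 24.0 at E11, and was not listed later. The ages did not overlap, and the log2 change of -3.64 ± 0.31 (limma adjusted p = 8e-06) was the largest in size of any member at any step. Dkk1, of the same family, had 15.0, 3.84, 5.57 and 3.28 units at E11 and was listed at no later age. Sfrp1, which binds Wnt ligands, had 10.5, 14.5, 26.2 and 8.96 units at E11, 13.8, 5.85, 4.78, 3.33 and 5.07 at E13, 29.7, 28.6, 30.3, 36.7 and 35.9 at E18, and 3.45 to 11.3 with a median of 7.79 at P70. E18 stood above all other ages without overlap, and E13 overlapped E11 only through E13 replicate 1.

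The log2 changes of Sfrp1 were -1.11 ± 0.34 at E13/E11 (limma adjusted p = 0.0221), 2.27 ± 0.32 at E18/E13 (5.67e-06) and -2.01 ± 0.30 at P70/E18 (2.4e-05). The first was lost without E11 replicate 2 or 3 or E13 replicate 3 or 4 (0.0524 to 0.116; 0.00109 to 0.116 over all alternatives), and no alternative removed the other two. Sfrp2, its relative, had 25.6 to 47.3 units at E11, 11.5 to 31.2 at E13, 11.6, 11.8, 17, 12.4 and 15.0 at E18, and 1.07 to 10.2 with a median of 1.51 at P70. It was lower at P70 than at E18 without overlap (-1.98 ± 0.37, limma adjusted p = 0.000216), and the earlier log2 changes of -0.93 ± 0.41 (0.115) and -0.41 ± 0.38 (0.403) were not called. The E13/E11 change of Sfrp2 was called with only both ages in the fit (0.0144), with a weight per library (0.000889), under the replicate block (0.0318) and on recovered reads with edgeR (0.0156), over a range of 0.000889 to 0.261. Dkk3, a divergent Dkk protein, had 0.809 to 9.04 units with a median of 4.56 at P70, against 42.5, 18.1, 13.6, 9.01 and 10.5 at E18; P70 replicate 6 (9.04) lay just above E18 replicate 4, and the log2 change was -1.83 ± 0.39 (limma adjusted p = 0.00087), or -1.49 (0.0037) without E18 replicate 1.

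Fibroblast and meningeal markers moved with the E13/E11 step: 6 of 8 tested were lower, and their summed level was 53.8 to 155 units at E13 and 302 to 830 at E11. Cell cycle markers were lower in 8 of 8, with sums of 208 to 462 units at E13 and 940 to 1110 at E11, and microglial markers higher in 7 of 7, with sums of 153 to 252 at E13 and 41.1 to 90.6 at E11. Mature neuron markers were higher in 4 of 8, with sums of 911 to 2431 units at E13 and 354 to 538 at E11. At E18/E13 cell cycle markers were lower in 7 of 7 tested, with sums of 52.2 to 61.8 units at E18 and 203 to 453 at E13, and neuron markers were higher in 4 of 8, with sums of 1287 to 2744 units at E18 and 911 to 2431 at E13. Erythroid markers were lower in 1 of 3 at E13/E11, with sums of 3614 to 13453 units at E13 and 8090 to 23386 at E11. At E18/E13 erythroid markers were lower in 2 of 2, with sums of 1.62 to 6.85 units at E18 and 3554 to 13202 at E13. Floor plate markers were lower in 4 of 8 tested and higher in 1 at E18/E13. The part of these markers in the changes of the members at either step was not tested.

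Among the TCF/LEF factors, Tcf7l1, Tcf7l2 and Tcf7 were lower at E13 than at E11, and Tcf7l1 and Tcf7l2 were higher again at E18. Tcf7l2, a TCF factor known in thalamic and midbrain neurons and in oligodendrocytes, had 33.0, 31.5, 35.2 and 37.1 units at E11, 23.6, 13.5, 19.3, 17.1 and 22.0 at E13, 55.1, 38.3, 25.8, 27.6 and 27.5 at E18, and 39.5 to 64.8 with a median of 57.3 at P70. E13 stood below E11 and E18 in every library, and P70 overlapped E18 only through E18 replicate 1. The log2 changes were -0.83 ± 0.21 (limma adjusted p = 0.00757), 0.80 ± 0.20 (0.00226) and 0.70 ± 0.19 (0.0059), and no alternative removed a call.

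Tcf7l1, known mostly as a repressor of targets, had 22.2, 13.9, 14.6 and 13.3 units at E11, 6.55, 3.63, 5.58, 3.47 and 8.75 at E13, 16.9, 11.4, 5.17, 10.8 and 11.8 at E18, and 6.61 to 14.0 with a median of 9.85 at P70. E13 was wholly below E11 (log2 change -1.40 ± 0.29, limma adjusted p = 0.00161), and E18 overlapped E13 through E18 replicate 3 (0.87 ± 0.27, 0.0123). Tcf7 had 0.887, 0.834, 0.745, 1.10 and 1.97 units at E13 and 5.09, 5.14, 3.91 and 3.0 at E11, without overlap (-1.33 ± 0.29, limma adjusted p = 0.0069). Lef1, an activating member of the family, had 7.98, 8.21, 7.82, 7.61 and 6.97 units at E13 and 9.32, 11.5, 19.2 and 11.9 at E11. The Lef1 ranges did not overlap, but its log2 change of -0.64 ± 0.22 was not called (limma adjusted p = 0.0635). It was called without E11 replicate 1 (0.0498), with only both ages in the fit (0.0218) and with a weight per library (0.0163), over a range of 0.0163 to 0.196. Neither Tcf7 nor Lef1 was listed at E18 or P70.

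The target genes did not move as a block. Sp5, a direct target in embryos and itself a repressor of others, had 1.45, 0.826, 0.722, 1.67 and 1.01 units at E13, against 9.0, 7.21, 14.9 and 12.2 at E11, and was not listed later. Every E13 library lay below every E11 library, with a log2 change of -2.44 ± 0.28 (limma adjusted p = 7.8e-05). Axin2, the most widely used readout of canonical signalling and a feedback inhibitor, differed from this: it had 6.97, 6.41, 6.08 and 8.31 units at E11, 5.03, 3.55, 7.44, 5.13 and 7.92 at E13, 12.6, 5.05, 3.39, 3.33 and 5.79 at E18, and 6.25 to 13.5 with a median of 12.2 at P70.

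Axin2 overlapped between E11 and E13 and was not called (log2 change -0.26 ± 0.31, limma adjusted p = 0.616), nor at E18/E13 (-0.05 ± 0.29, 0.904; -0.32, 0.328 without E18 replicate 1). At P70 it was higher than at E18 (0.84 ± 0.28, 0.0192), with overlap through E18 replicate 1, which stood apart from the other E18 libraries; without that library the log2 change was 1.11 (0.00139). This call was lost without E18 replicate 3 or 4 (0.0603 and 0.0637), with only both ages in the fit (0.0559) and with a weight per library (0.0642), over a range of 0.00139 to 0.0642.

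Apcdd1, a membrane inhibitor and target, had 19.7, 14.1, 9.51 and 12.7 units at E11, 8.15, 14.4, 23.4, 16.3 and 48.6 at E13, and 6.39, 0.988, 2.08, 1.94 and 2.80 at E18, and was not listed at P70. All E18 libraries were below all E13 libraries (log2 change -2.50 ± 0.40, limma adjusted p = 8.85e-05). Endothelial and mural markers moved with this step, with 5 of 8 tested lower and summed levels of 29.6 to 46.5 units at E18 and 68.0 to 88.4 at E13; their part in it was not tested. Nkd1, a feedback inhibitor acting on Dishevelled, had 9.29, 6.47, 5.50, 9.33 and 8.58 units at E18 and 11.0, 11.5, 15.1, 24.0 and 35.3 at E13, without overlap (-1.09 ± 0.30, limma adjusted p = 0.00508). It did not pass at P70/E18 (-0.02 ± 0.29, 0.97).

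Znrf3, a ubiquitin ligase that removes Frizzled receptors from the membrane, had 18.8, 21.2, 15.7, 10.1 and 8.19 units at E18 and 13, 7.0, 8.77, 6.79 and 8.6 at E13. The ages overlapped, and the log2 change was 0.64 ± 0.25 (limma adjusted p = 0.0399). The call was lost without any of E13 replicates 2, 3, 4 and 5 or E18 replicates 1, 2 and 3 (0.0617 to 0.125) and with only both ages in the fit (0.0526), over a range of 0.0105 to 0.125.

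Promoter sequences from RefSeq (GRCm38.p6) were available for 23 members, as 29 windows running from 250 bases before to 50 after a start. The motif CTTTGAA or CTTTGAT, the core that TCF/LEF factors recognise, was searched on both strands; the spellings cannot overlap on 1 strand. It was found in 2842 of 32851 windows of all genes (8.65%) and in 2 of the 29 member windows, those of Sp5 and Dkk1. With only 2 windows found, the share of member windows cannot be told apart from that of all windows. Lef1, Tcf7, Tcf7l2 and Rnf43 each gave several of the 29 windows. Sp5 had 1.14 ± 0.409 units at E13, against 10.8 ± 3.41 at E11 (SD, n = 5 at E13 and 4 at E11), and Dkk1 was listed at E11 alone. Dkk2, Fzd7, Lef1, Sfrp2, Tcf7, Tcf7l1, Wnt1 and Wnt8b also had their highest listed mean at E11, and their windows held no motif. A link between the motif and the level of a gene was not tested. The Sp5 window is chr2:70474673-70474972 on the plus strand and the Dkk1 window chr19:30549447-30549746 on the minus strand; capitals mark the motif, and both lines read 5′ to 3′ along the gene.
Sp5: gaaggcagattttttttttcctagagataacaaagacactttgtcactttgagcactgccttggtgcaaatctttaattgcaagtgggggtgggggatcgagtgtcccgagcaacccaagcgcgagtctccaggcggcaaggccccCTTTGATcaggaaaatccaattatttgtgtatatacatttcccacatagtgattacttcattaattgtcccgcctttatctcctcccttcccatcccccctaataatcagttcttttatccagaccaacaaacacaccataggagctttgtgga
Dkk1: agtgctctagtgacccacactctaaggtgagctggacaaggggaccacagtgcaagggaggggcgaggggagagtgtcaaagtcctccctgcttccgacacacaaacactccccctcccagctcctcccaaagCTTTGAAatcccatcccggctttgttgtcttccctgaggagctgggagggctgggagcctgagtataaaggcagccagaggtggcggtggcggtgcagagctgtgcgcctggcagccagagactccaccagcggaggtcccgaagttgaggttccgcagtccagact
The motif starts 104 bases before the Sp5 start and 117 bases before the Dkk1 start. A match in these letters is a description and not a binding site.

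In the cultured spheres, 25 of the 38 members passed the filter on low counts and were compared with edgeR's quasi-likelihood test, with adjustment over 12886 genes. In MB against FB spheres, 5 members were higher and 7 lower, and 29.6% of all genes tested were called (15.3% higher and 14.3% lower). The median log2 difference of the members was -0.06, against -0.02 over all genes. Forebrain markers were lower in MB spheres in 5 of 5 tested, with sums of 0.356 to 1.74 CPM in MB and 30.9 to 55.5 CPM in FB. Floor plate markers summed to 495 to 610 CPM in MB and 117 to 144 CPM in FB, of which Spon1 made up most (478 ± 45.0 CPM in MB and 91.7 ± 8.95 in FB, n = 5 each), while Foxa2 averaged 0.282 ± 0.354 CPM in MB and 0.0237 ± 0.0531 in FB. Cell cycle markers summed to 1542 to 1646 CPM in MB and 1901 to 2119 in FB, with 5 of 8 lower in MB. The part of these markers in the member differences was not tested.

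The receptors split evenly, with 3 higher and 3 lower of 10 tested, beside 15.3% and 14.3% of all genes. Fzd9 had 62.3, 61.3, 64.4, 131 and 65.5 CPM in MB spheres and 13.3, 15.2, 21.5, 11.4 and 9.75 CPM in FB spheres, with MB replicate 4 far above the others and no overlap between the groups (log2 difference 2.40 ± 0.23, edgeR adjusted p = 1.22e-07, or 2.12 without that library). Lgr5, an R-spondin receptor known as a stem cell marker of the gut, had 34.7, 12.9, 28.1, 27.2 and 24.5 CPM in MB and 1.35, 4.45, 3.87, 7.59 and 7.58 CPM in FB, also without overlap (2.31 ± 0.34, 3.07e-05). Fzd1 had 20.8, 24.4, 22.8, 27.8 and 15.2 CPM in MB and 9.29, 9.16, 6.89, 7.47 and 7.83 CPM in FB (1.43 ± 0.21, 2.62e-05), again without overlap.

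The lower receptors showed smaller differences. Fzd2 had 3.03, 5.60, 5.82, 4.27 and 3.01 CPM in MB and 7.49, 6.8, 10.1, 7.71 and 7.34 CPM in FB, without overlap (log2 difference -0.88 ± 0.31, edgeR adjusted p = 0.0374). Lrp5 had 1.44, 2.94, 3.32, 3.32 and 2.23 CPM in MB and 5.99, 3.01, 4.84, 6.17 and 8.07 CPM in FB, overlapping through FB replicate 2 (-1.10 ± 0.39, 0.0403). Fzd3 had 122, 125, 135, 141 and 100 CPM in MB and 141, 137, 141, 179 and 151 CPM in FB, overlapping through MB replicate 4 (-0.29 ± 0.09, 0.0271). Each of the 3 calls was lost on leaving out any 1 of several libraries, while the log2 difference kept its sign.

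The Fzd2 call was lost without MB replicate 1, 4 or 5 or FB replicate 1, 3, 4 or 5 (edgeR adjusted p 0.0532 to 0.101), with no filter on low counts (0.106) and under the replicate block (0.052), over a range of 0.0146 to 0.106. The Lrp5 call was lost without MB replicate 1, 2 or 5 or FB replicate 1, 3, 4 or 5 (0.0547 to 0.123), with no filter (0.0984) and under the replicate block (0.0889), over 0.0178 to 0.123. The Fzd3 call was lost without MB replicate 1 or 5 or FB replicate 4 or 5 (0.0543 to 0.111), over 0.0151 to 0.111.

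Rnf43 and Znrf3 encode related ubiquitin ligases that both remove Frizzled receptors, and they differed in opposite directions. Rnf43, not listed in captured cells, had 10.7, 7.28, 22.0, 18.5 and 8.38 CPM in MB and 0, 1.44, 0.215, 3.68 and 2.05 CPM in FB, without overlap (log2 difference 3.12 ± 0.59, edgeR adjusted p = 0.000401). Znrf3 had 44.1, 44.0, 45.4, 40.0 and 35.6 CPM in MB and 45.2, 54.0, 73.0, 68.2 and 75.1 CPM in FB, overlapping only through MB replicate 3 and FB replicate 1 (-0.62 ± 0.14, 0.00171). Tcf7l2 had 94.3, 107, 109, 102 and 110 CPM in MB and 61.3, 60.8, 66.8, 59.5 and 69.3 CPM in FB, without overlap (0.69 ± 0.08, edgeR adjusted p = 3.18e-06). Nkd1 had 16.9, 17.2, 22.0, 11.4 and 23.4 CPM in MB and 22.9, 28.4, 33.1, 33.0 and 33.5 CPM in FB, overlapping through MB replicate 5 (-0.75 ± 0.19, 0.00517). The readout gene Axin2 was not called, at 14.3 ± 4.47 CPM in MB and 11.9 ± 3.76 in FB (n = 5 each; 0.24 ± 0.27, edgeR adjusted p = 0.533).

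**Figure D4:**
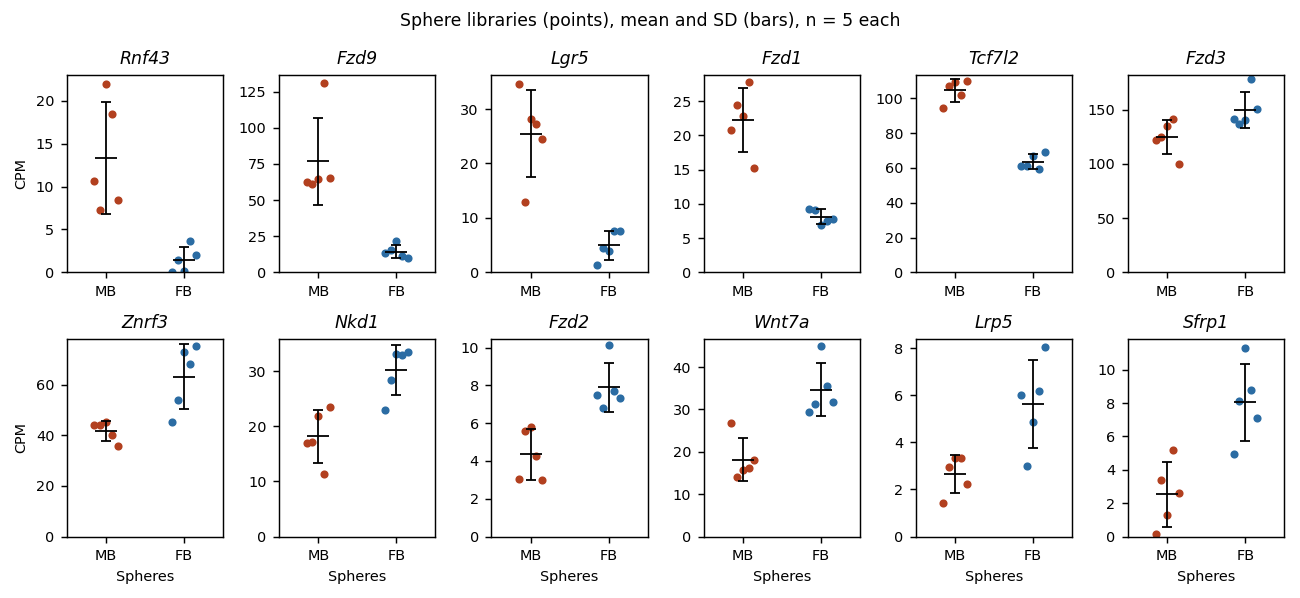
CPM of the 12 called members in each sphere library (points), MB left of FB, with mean and SD (bars, n = 5 each); each vertical axis starts at 0. Rnf43, Fzd9, Lgr5, Fzd1 and Tcf7l2 are higher in MB without overlap, and Fzd3, Znrf3, Nkd1, Fzd2, Wnt7a, Lrp5 and Sfrp1 are lower in MB, with overlap for all but Fzd2 and Wnt7a.

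Of the ligands and inhibitors, Wnt7a and Sfrp1 were lower in MB spheres. Wnt7a had 26.9, 14.0, 15.7, 16.1 and 18.1 CPM in MB and 29.5, 31.4, 45.1, 35.5 and 31.7 CPM in FB, without overlap (log2 difference -0.96 ± 0.19, edgeR adjusted p = 0.000597). Sfrp1 had 0.144, 3.36, 1.31, 5.22 and 2.62 CPM in MB and 4.94, 8.11, 11.3, 8.78 and 7.10 CPM in FB, overlapping through MB replicate 4 (-1.70 ± 0.51, 0.015). Wnt5a (117 ± 9.36 CPM in MB and 102 ± 10.9 in FB) and Wnt7b (136 ± 29.4 in MB and 158 ± 17.9 in FB, n = 5 each) were not called (edgeR adjusted p = 0.162 and 0.131); Wnt7b passed only without MB replicate 5 (0.0323; 0.0323 to 0.303 over all alternatives).

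The 13 members below the filter had few counts. Wnt3, a canonical ligand, had 39 counts over the MB libraries, with some in 5 of 5, and 0 in 40350375 counts over the FB libraries, which is at least 14.4-fold higher in MB against a floor of 3 counts over the group. Rspo3 had 41 counts in MB, in 5 of 5 libraries, and 5 in FB, all in 1 library. The other 11 had 0 to 13 counts over MB and 0 to 24 over FB, and Wnt1, a defining ligand of the embryonic midbrain, had 1 count in MB and 0 in FB. Intervals and floors cover counting error only.

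The wider pathway, 78 further genes, was read the same way. At E13/E11, 8 of 49 tested were higher and 7 lower, beside 9.26% and 11.2% of all genes. At E18/E13, 12 of 51 were higher and 8 lower, beside 22.2% and 24.8% of all genes. At P70/E18, 6 of 49 were higher and 17 lower, beside 16.8% and 23.9%, and in MB against FB 10 of 55 were higher and 8 lower, beside 15.3% and 14.3%. At E13/E11 Porcn, the enzyme that lipid-modifies Wnt ligands, had a log2 change of 1.16 ± 0.21 (limma adjusted p = 0.00039), and Ccnd1, a cell cycle gene known as a target, -2.09 ± 0.28 (2.22e-05). At E18/E13 Vangl1, a planar polarity gene, averaged 15.1 ± 3.85 units at E18 and 2.01 ± 0.664 at E13 (n = 5 each; 2.42 ± 0.22, limma adjusted p = 1.97e-08), and the co-repressor gene Tle2 26.3 ± 0.678 and 5.73 ± 1.51 (2.05 ± 0.36, 8.46e-05).

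At P70/E18 the inhibitor of beta-catenin binding Ctnnbip1, beta-catenin itself (Ctnnb1) and Tle2 were lower, and the ligand gene Wnt4 was higher. Ctnnb1 averaged 119 ± 28.1 units at P70 and 256 ± 40.1 at E18 (SD, n = 6 and 5; log2 change -1.12 ± 0.14, limma adjusted p = 3.01e-06). Wnt4 averaged 23.7 ± 6.85 units at P70 and 2.89 ± 1.05 at E18 (2.67 ± 0.25, 6.63e-08). Of the destruction complex genes tested, 5 of 9 were lower and 0 higher, beside 23.9% and 16.8% of all genes. That was the largest number of lower calls among the wider pathway lists, but not the largest share. Transducers had 4 of 14 lower and 3 higher, and planar polarity genes 3 of 9 lower and 0 higher. Other targets had 2 of 2 lower, and other ligands 1 of 4 lower and 2 higher. Other receptors had 1 of 6 lower and 1 higher, ligand processing genes 1 of 2 lower, and other secreted inhibitors 0 of 3 called. Tspan12, a co-receptor gene of Norrin signalling through Fzd4, was higher at E13/E11 (0.87 ± 0.21, limma adjusted p = 0.00547) and at E18/E13 (1.15 ± 0.20, 6.66e-05), and lower at P70/E18 (-2.09 ± 0.19, 4.09e-08).

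In MB spheres Wls, the gene for the carrier that brings Wnt ligands to the cell surface, averaged 351 ± 21.2 CPM, against 105 ± 9.06 CPM in FB spheres (n = 5 each; log2 difference 1.72 ± 0.07, edgeR adjusted p = 7.24e-13). The inhibitor genes Draxin (1.75 ± 0.20, 1.25e-06) and Sostdc1 (3.21 ± 0.53, 0.000111) were also higher, and Tspan12 (-0.66 ± 0.05, 1.64e-09) and Ccnd1 (-0.38 ± 0.04, 1.73e-07) lower. At P70 against E18, floor plate markers were lower in 6 of 6 tested (50.2 to 121 units at P70 and 450 to 660 at E18) and ependymal markers higher in 7 of 8 (16127 to 26356 at P70 and 6379 to 9216 at E18), as they were in 6 of 6 at E18 against E13 (4674 to 6393 at E18 and 40.8 to 82.7 at E13). Astrocyte markers summed to 766 to 1200 units at P70 and 163 to 344 at E18, with 4 of 6 higher and 1 lower. Oligodendrocyte markers summed to 194 to 671 units at P70 and 46.5 to 69.0 at E18, and Mbp made up most of the P70 sum. Only 2 of 5 oligodendrocyte markers tested were higher and 1 was lower, with a median log2 change of -0.34. Mature neuron markers were lower in 4 of 8 at P70/E18, with sums of 795 to 1151 units at P70 and 1287 to 2744 at E18. The part of these markers in the changes of the Wnt pathway genes was not tested.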

How the data were processed

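Per the labels' protocols, polyadenylated RNA came from an RNeasy micro extraction, and Smart-seq2 cDNA was tagmented into libraries without molecular identifiers or strand marks, so reads of a gene and of an overlapping or antisense gene cannot be told apart. The submitters' processing notes name the builds GRCm39 and mm10, and the tools DESeq2 1.34.0, STAR 2.3 and Salmon 1.6.0, with no role for any of them. The captured table was deposited by the authors as normalized values with no stated unit. Low values step as whole reads divided by gene length and depth, as RPKM do, and for 10916 of its 14997 genes (72.8%) whole reads were recovered within 0.01 reads; 142 lines that repeat 11 symbols were left out. The sphere table holds raw counts per gene as deposited by the authors.

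Captured values were tested with limma 3.58.1 (trend, all 20 libraries) on log2(units + 1), a scale that understates the change of low genes, and sphere counts with edgeR 4.0.16 (quasi-likelihood, TMM, filterByExpr), in R 4.3.3. DESeq2 1.42.0 served as an alternative, beside pseudocounts, filters, scalings, a replicate block and leaving out each library. The tests were tried on simulated data. Members with a call, or listed at 1 age of a pair with a mean of at least 5 units, are described per library, the others by range; of the wider pathway, up to 4 genes a direction with the smallest p could be named. The members and gene lists were chosen with earlier results of these data known. No pair of libraries held identical values: the highest correlation within a group was 0.986.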

Additional observations from a re-analysis of the deposited data

Results flagged for a closer look

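In 10 of 150 groups of 4 to 6 libraries, 1 library lay farther from the rest than Dixon's 95% limit allows; chance alone gives about 1 in 20. At E18, replicate 1 was the highest for Rspo3 (9.92 units, the others 3.35 to 4.75), Dkk3 (42.5, the others 9.01 to 18.1) and Axin2 (12.6, the others 3.33 to 5.79). At E13, replicate 1 was highest for Sfrp1 (13.8 units, the others 3.33 to 5.85) and replicate 5 for Tcf7 (1.97, the others 0.745 to 1.10). Tcf7l1 was highest in E11 replicate 1 (22.2 units, the others 13.3 to 14.6), and Fzd2 was lowest in P70 replicate 6 (0.842, the others 4.89 to 6.61). In the spheres, Fzd9 was highest in MB replicate 4 (131 CPM, the others 61.3 to 65.5), and FB replicate 3 was highest for Fzd2 (10.1 CPM, the others 6.8 to 7.71) and Tcf7l1 (6.78, the others 1.35 to 2.53).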

How the results depend on the processing

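No member change called under at least 1 setting reversed under another; of 37 member results called under none, 16 changed sign under at least 1 setting. Leaving out a library kept 476 of 535 of the member results called at least once on their side of the threshold, with 50 calls lost and 9 gained; other settings kept 287 of 324, with 14 lost and 23 gained. At E13/E11 the 9 members called became 14 when only both ages were fitted and 15 with a weight per library (2364 genes in all became 3811 and 4836). With edgeR on recovered reads, 8 of 14 members tested were called at E18/E13, against 13 of 21 in the main fit. Of all genes tested, 4628 of 8630 were called at that step, against 5543 of 11797. At P70/E18 this setting called 5 of 11 members, against 9 of 17. Of all genes tested, 2836 of 8994 were called there, against 5024 of 12353. Some members have no recovered reads. Leaving out 1 library gave 7 to 10 members called at E13/E11, 10 to 12 at E18/E13, 7 to 10 at P70/E18 and 9 to 12 in MB against FB. Over all genes it gave 1714 to 2188, 5013 to 5361, 4366 to 5171 and 3422 to 3632 calls, in the same order. TMM rescaling changed the share of higher genes among those called at P70/E18 to 53.0%, against 41.3%. Replicate numbers gave no steady pairing: deviations of same-numbered libraries from their group means correlated at -0.146 to 0.239. The replicate block gave 11, 13, 10 and 10 members called in these comparisons, beside 2655, 5824, 5004 and 3650 of all genes. Depth limits the 13 sphere members below the filter and those near 1 unit.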
